A study of Homo sapiens with 9 samples.

Results

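The genes described here are 10 genes of the endoplasmic reticulum (ER) unfolded protein response, namely EDEM1, DNAJB9, DNAJC3, HSPA5, HSP90B1, HERPUD1, XBP1, SEL1L, SDF2L1 and PDIA4. They were taken by name, with every probe annotated to them on the array. Probes named 9 of the 10 genes, and HERPUD1 is not analysed here. These 9 genes had 10 probes of the 47323 on the array and are 9 of the 10307 genes tested. The cells were Ramos, a line from a human Burkitt's lymphoma, at passage 10 to 15, which had received HDL NPs at 40 nM, human HDL at 40 nM or PBS (the untreated control) for 48 h. HDL NPs are synthetic particles with a gold core, coated with apolipoprotein A-I and phospholipids, whereas human HDL is rich in cholesterol. Total RNA of 3 biological replicates per condition was read on 9 Illumina HT-12 arrays, each sample on 1 array. A single line was used, so the values speak for Ramos cells, and in bulk RNA a change in every cell and a change in a share of the cells cannot be told apart.

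The unfolded protein response is the program by which a cell meets an excess of unfolded protein in the ER. It has 3 sensors in the ER membrane. IRE1 (gene ERN1) splices XBP1 mRNA so that an active transcription factor is made, ATF6 is cut by proteases in the Golgi and moves to the nucleus, and PERK (gene EIF2AK3) slows translation and lets ATF4 be made. Spliced XBP1 is best known for raising genes of ER-associated degradation and ER cochaperones, ATF6 for raising the ER chaperones, and the target sets overlap. In B cells XBP1 is required for the plasma cell program of antibody secretion. Here EDEM1, DNAJB9 and DNAJC3, which depend on XBP1 in mouse cells, are the XBP1 targets, and HSPA5, HSP90B1, HERPUD1, XBP1, SEL1L, SDF2L1 and PDIA4 are the ATF6 targets.

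The promoters show how the members differ in the sites through which these factors are known to act. Promoters of RefSeq (GRCh38.p14), 300 bases each with 50 of them after the start site, covered all 10 genes with 12 of the table's 35116 promoters. The ER stress response element ERSE (CCAAT, then any 9 bases, then CCACG, with both strands searched), which ATF6 and XBP1 bind with NF-Y, was present without mismatch in HSPA5, HSP90B1 and XBP1, 3 of the 10 members, against 27 promoters in the table (0.0769%). ERSE-II (ATTGG, then any 1 base, then CCACG, both strands) was present in HERPUD1 and SDF2L1, against 19 promoters in all (0.0541%). The XBP1-binding sequence UPRE, searched as TGACGTGG on both strands, was in 0 member promoters and in 0.729% of all promoters. The motif CCACG, which is the end of both ERSE forms and so overlaps them, was found on either strand in 12 of the 12 member promoters and in 38.1% of all. With up to 1 of the 10 fixed letters of ERSE different, 7 of the 10 members held it (DNAJC3, HERPUD1, HSP90B1, HSPA5, SDF2L1, SEL1L and XBP1), against 1.55% of promoters. A match is a description of the sequence and no measurement of binding. The members were chosen as genes of this response, so these shares are no test of enrichment.

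The following 200 bases before the start site, 5′ to 3′ on the strand of the gene, are shown for the members on which the results turn. In the first 4 the capitals mark ERSE or ERSE-II, read on either strand.
HSPA5, chr9:125241344-125241543, minus strand: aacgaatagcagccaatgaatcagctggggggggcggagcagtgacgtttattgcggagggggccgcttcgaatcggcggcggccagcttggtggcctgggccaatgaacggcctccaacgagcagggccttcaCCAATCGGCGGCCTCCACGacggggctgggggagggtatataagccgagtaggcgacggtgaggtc
HSP90B1, chr12:103930210-103930409, plus strand: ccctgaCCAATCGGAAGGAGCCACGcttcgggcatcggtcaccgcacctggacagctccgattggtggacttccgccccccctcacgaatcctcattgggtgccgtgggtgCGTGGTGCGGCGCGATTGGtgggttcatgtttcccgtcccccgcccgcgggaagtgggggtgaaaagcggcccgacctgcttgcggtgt
XBP1, chr22:28800570-28800769, minus strand: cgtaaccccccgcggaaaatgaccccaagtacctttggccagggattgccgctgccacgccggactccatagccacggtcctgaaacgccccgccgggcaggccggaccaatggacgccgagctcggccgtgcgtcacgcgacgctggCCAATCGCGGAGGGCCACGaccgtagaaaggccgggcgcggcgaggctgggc
SDF2L1, chr22:21642102-21642301, plus strand: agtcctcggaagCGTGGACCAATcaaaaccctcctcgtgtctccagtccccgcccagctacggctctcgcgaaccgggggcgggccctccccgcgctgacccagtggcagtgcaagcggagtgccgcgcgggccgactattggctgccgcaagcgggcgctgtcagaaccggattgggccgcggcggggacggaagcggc
In the 3 XBP1 targets neither element was found, and the capitals mark CCACG or its reverse complement CGTGG.
EDEM1, chr3:5187507-5187706, plus strand: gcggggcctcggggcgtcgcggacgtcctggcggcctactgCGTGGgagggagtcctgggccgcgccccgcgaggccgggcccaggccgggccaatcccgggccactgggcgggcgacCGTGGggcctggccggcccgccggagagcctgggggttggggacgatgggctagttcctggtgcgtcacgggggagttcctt
DNAJB9, chr7:108569674-108569873, plus strand: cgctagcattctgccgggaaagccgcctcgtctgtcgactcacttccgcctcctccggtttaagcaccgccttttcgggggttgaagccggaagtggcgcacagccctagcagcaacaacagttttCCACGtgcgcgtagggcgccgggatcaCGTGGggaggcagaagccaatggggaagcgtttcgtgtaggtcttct
DNAJC3, chr13:95676939-95677138, plus strand: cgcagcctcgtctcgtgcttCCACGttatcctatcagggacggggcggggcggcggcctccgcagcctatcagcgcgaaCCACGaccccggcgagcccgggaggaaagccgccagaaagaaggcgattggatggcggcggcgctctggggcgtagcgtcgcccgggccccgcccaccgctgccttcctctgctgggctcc
The element of HSPA5 lay at -66 to -48 from the start site and that of XBP1 at -52 to -34. HSP90B1 held 2 elements, at -194 to -176 and, on the opposite strand, at -89 to -71. The ERSE-II of SDF2L1 lay on the opposite strand at -188 to -178.

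The arrays had mean intensities of 228 to 278, and 33.9% to 38.1% of the probes on an array were above background (detection p under 0.05). Levels below are log2 values after background correction and quantile normalization, and differences are in log2 units. A single array stands apart. On HDL NP replicate 1, 591 genes lay 1 log2 unit or more from the human HDL mean, against 6 and 9 genes on HDL NP replicates 2 and 3, so values without it are given beside the results. B cell genes were present as the label says, with CD22, CD79A, CD79B and MS4A1 above background on all 9 arrays and a summed level of 7995 to 9143 in PBS, 8358 to 8808 in human HDL and 8536 to 8589 in HDL NP, while PAX5 was above background on 0 arrays. Of the T cell markers CD3E was above background on 0 arrays, CD3D on 1, CD8A on 2 and CD2 on 4, with a summed level of 19.9 to 27.5 over 4 genes. Of the myeloid markers ITGAM was above background on 0 arrays and CSF1R on 2, but LYZ was on 7, CD14 on 8 and CD68, a lysosomal protein, on all 9, with a summed level over 5 genes of 127 to 151 in PBS, 136 to 144 in human HDL and 126 to 165 in HDL NP. Of the plasma cell list, 5 or 6 of 6 genes were above background on each array, with a summed level of 4059 to 4611 in PBS, 3975 to 4333 in human HDL and 4065 to 4497 in HDL NP. The germinal centre genes BCL6, MME and CD38 had a higher summed level with HDL NPs (1499 to 2356, against 1233 to 1409 in PBS and 1237 to 1305 in human HDL). The value of 2356 was that of HDL NP replicate 1. Against PBS the adjusted p of these genes was 0.184 to 0.434 in limma, and their part in the values below was not tested.

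After HDL NP treatment the members separated into genes that were higher on every HDL NP array and genes that were not. EDEM1, DNAJB9, DNAJC3, XBP1 and HSP90B1, 5 of the 9 measured members, were higher on all 3 HDL NP arrays than on any PBS array, as were 11.7% of all genes tested. The same 5 genes had an unadjusted limma p under 0.05 on the higher side (all genes, 9.07%), and their differences from PBS ran from 0.38 for HSP90B1 to 0.61 for EDEM1. HSPA5, PDIA4, SDF2L1 and SEL1L overlapped with PBS. This separation is one of normalized levels. In the bead intensities before normalization, HDL NP replicate 2 was within the PBS range for DNAJB9 (237, PBS 181 to 255) and DNAJC3 (113, PBS 99.7 to 122). It was also within that range for the brighter XBP1 probe (1810, PBS 1529 to 2178), and for HSP90B1 it was below every PBS array (1139, PBS 1156 to 1396). On the lower side, 0 members had every HDL NP array below PBS (all genes, 8.50%), 0 had an unadjusted p under 0.05 (all genes, 6.35%) and 0 met the 1.5-fold rule described next (all genes, 1.10%). None of the 9 passed limma's test at a Benjamini-Hochberg adjusted p under 0.05 (0 members, against 0.369% of all genes called higher and 0.0388% called lower), so no member is said to have risen or fallen. The study's own rule for its arrays, a fold over 1.5 with an unadjusted p under 0.05, was met by 1 member, EDEM1 (all genes, 1.43% higher). Without HDL NP replicate 1, the same 5 members remained above every PBS array (all genes, 15.0%), EDEM1, DNAJB9, DNAJC3 and XBP1 had an unadjusted p under 0.05 on the higher side (4 of 9, all genes 7.74%), and 0 met the 1.5-fold rule (all genes, 0.854% higher).

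**Figure D1:**
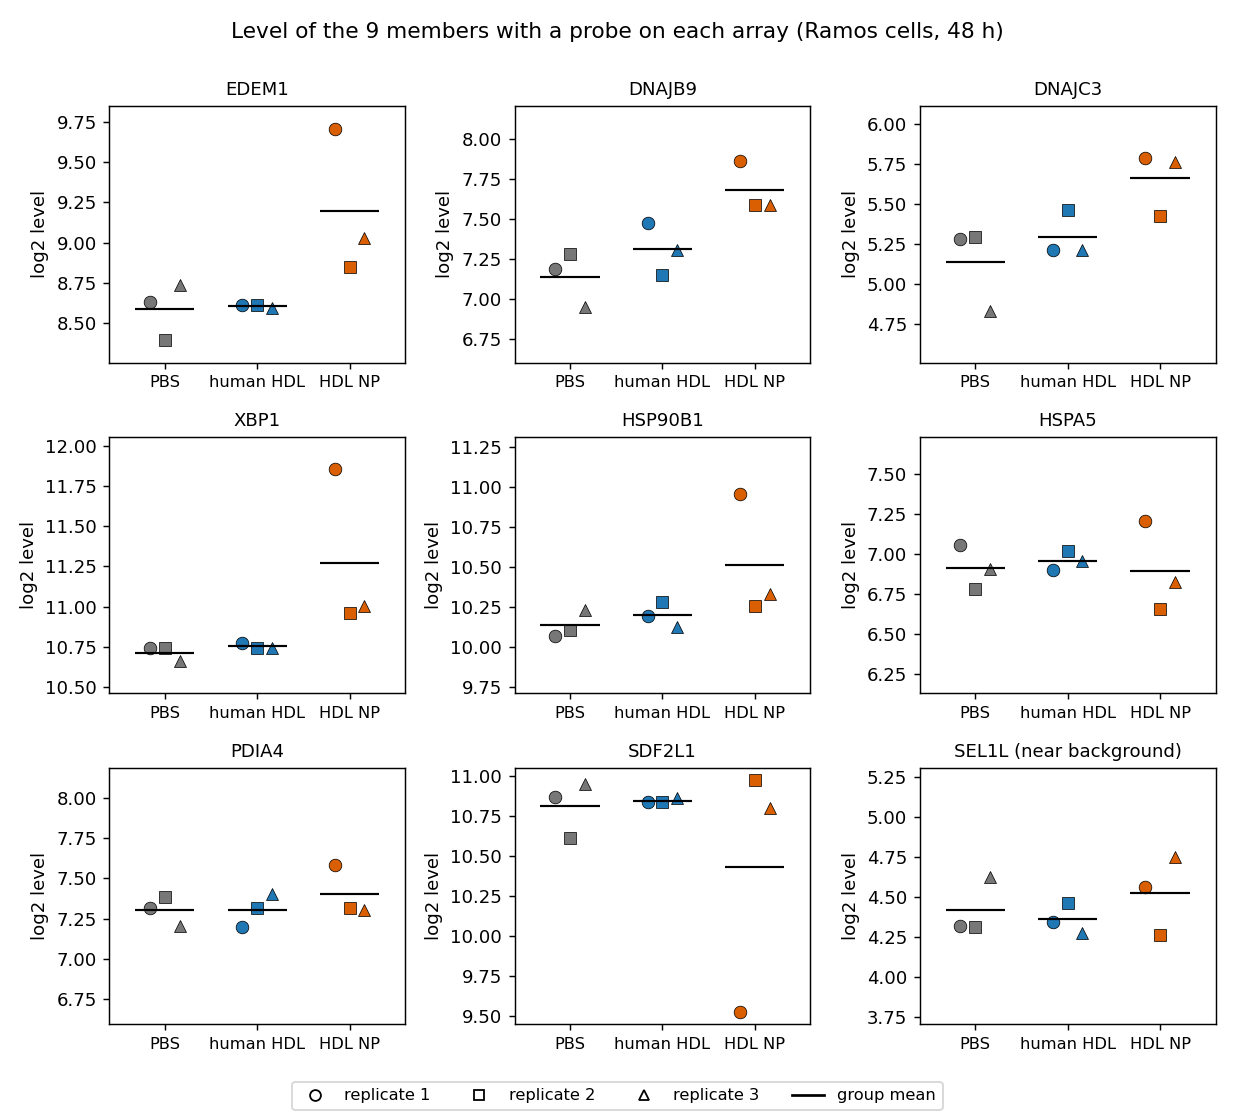
Log2 level (vertical axis, after normalization) of each of the 9 members with a probe, on each of the 9 arrays by condition. Symbols stand for the replicate number and the line for the mean of 3 arrays. The vertical axes of the panels differ in position, and the 3 HDL NP points lie above all PBS points for EDEM1, DNAJB9, DNAJC3, XBP1 and HSP90B1.

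EDEM1 encodes a lectin-like protein that draws misfolded glycoproteins out of the folding cycle for degradation. Its level was 8.63, 8.39 and 8.73 on the PBS arrays, 8.61, 8.61 and 8.59 with human HDL, and 9.71, 8.85 and 9.03 with HDL NPs. All 3 HDL NP arrays were above all 6 others, and the first was well above the others. HDL NP exceeded PBS by 0.61 (SE 0.19, n = 3 arrays per group, 1.52-fold, 95% interval 0.19 to 1.02), with an unadjusted limma p of 0.00756 and an adjusted p of 0.188, and the exact two-sided permutation p was 0.1, the smallest that 3 against 3 arrays can give. Without HDL NP replicate 1 the difference was 0.35 (adjusted p = 0.234 in limma) and the study's rule was no longer met. It was also not met without PBS replicate 2, where the difference was 0.51. In the bead intensities before any normalization, EDEM1 read 1142, 466 and 563 with HDL NPs against 444 to 466 with PBS, so on the second HDL NP array, which had the lowest mean intensity of the 9, the higher level was seen after the arrays were normalized to a common distribution.

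DNAJB9 and DNAJC3 encode J-domain cochaperones of HSPA5. DNAJB9 (ERdj4) is known to hand misfolded proteins to degradation and to restrain IRE1, and DNAJC3 (p58IPK) to inhibit the kinase PERK. The level of DNAJB9 was 7.19, 7.28 and 6.95 with PBS, 7.48, 7.15 and 7.31 with human HDL, and 7.86, 7.59 and 7.59 with HDL NPs. The HDL NP arrays again lay above all 6 others, and the differences of the 3 arrays from the PBS mean were the most even among the members with non-overlapping groups (0.72, 0.45 and 0.45). The group difference was 0.54 (SE 0.14, 1.45-fold, 95% interval 0.24 to 0.84), with an adjusted p of 0.113 in limma, and by its unadjusted p of 0.00212 DNAJB9 was the first of the members, at rank 191 of 10307 genes. Without HDL NP replicate 1 the difference was 0.45.

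DNAJC3 was a dimmer gene, at 5.28, 5.29 and 4.83 with PBS, 5.21, 5.46 and 5.21 with human HDL, and 5.79, 5.42 and 5.76 with HDL NPs. The HDL NP arrays did not overlap with PBS, but the second lay at 5.42, below the highest human HDL array at 5.46. DNAJC3 exceeded PBS by 0.52 (SE 0.16, 1.44-fold, adjusted p = 0.170 in limma), and by 0.46 without HDL NP replicate 1. It is near the low end of the measured range, and without background correction its difference was 0.19.

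XBP1 encodes the transcription factor of the IRE1 branch and was read by a pair of probes that named different RefSeq transcripts of the gene. The files used here give no probe sequence, so whether either probe tells spliced from unspliced XBP1 mRNA was not tested. The brighter probe, which stands for the gene, read 10.74, 10.74 and 10.66 with PBS, 10.77, 10.74 and 10.74 with human HDL, and 11.86, 10.96 and 11.002 with HDL NPs. The 6 PBS and human HDL arrays lay between 10.66 and 10.77, and all HDL NP arrays were above them. The difference from PBS was 0.56 (SE 0.20, 1.47-fold, 95% interval 0.13 to 0.99, adjusted p = 0.233 in limma), of which 0.27 was left without HDL NP replicate 1. The second probe read 10.18, 10.14 and 10.21 with PBS, 10.24, 10.03 and 10.16 with human HDL, and 11.16, 10.44 and 10.55 with HDL NPs. Its difference from PBS was 0.54 (SE 0.17, adjusted p = 0.231 in limma over 18185 probes), so both probes ran in the same direction on every HDL NP array.

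HSP90B1 (GRP94) and HSPA5 (BiP) are the main chaperones of the ER lumen, of the HSP90 and HSP70 families. HSP90B1 read 10.07, 10.11 and 10.23 with PBS, 10.20, 10.28 and 10.13 with human HDL, and 10.95, 10.26 and 10.33 with HDL NPs. The second HDL NP array was barely above the highest PBS array and lay below the highest human HDL array. The difference of 0.38 (SE 0.17, unadjusted p = 0.0436, adjusted p = 0.313 in limma) was 0.16 without HDL NP replicate 1.

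HSPA5, the chaperone that binds the sensors in unstressed cells and the usual readout of the response, read 7.06, 6.78 and 6.91 with PBS, 6.90, 7.02 and 6.95 with human HDL, and 7.21, 6.65 and 6.83 with HDL NPs. The HDL NP group held both the highest and the lowest of the 9 values. The difference from PBS was -0.02 (SE 0.15, adjusted p = 0.961 in limma), with a 95% interval of -0.34 to 0.30, so a 1.5-fold rise or fall (0.58 log2 units) lay outside it. Its direction was not settled: with median scaling in place of quantiles the difference was 0.10, and without HDL NP replicate 2 it was also 0.10.

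The remaining ATF6 targets showed no common direction. PDIA4, a protein disulfide isomerase, read 7.32, 7.38 and 7.21 with PBS, 7.20, 7.31 and 7.41 with human HDL, and 7.58, 7.32 and 7.30 with HDL NPs. Its groups overlapped, and the difference from PBS was 0.10 (SE 0.12, 95% interval -0.17 to 0.37, adjusted p = 0.713 in limma), or 0.0077 without HDL NP replicate 1. SDF2L1, a soluble ER protein that associates with the cochaperone DNAJB11, read 10.87, 10.61 and 10.95 with PBS, 10.83, 10.83 and 10.86 with human HDL, and 9.53, 10.98 and 10.80 with HDL NPs. It was lower on HDL NP replicate 1 alone, by 1 log2 unit or more against every other array, and also in the bead intensities before normalization (1027 there, against 1753 to 1978 on the other 8 arrays). The mean difference of -0.38 (SE 0.29, adjusted p = 0.532 in limma) turned to 0.08 without that array.

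SEL1L, the scaffold of the HRD1 degradation complex, was near background. Its detection p was under 0.05 on 2 of 3 HDL NP arrays, 0 of 3 human HDL arrays and 1 of 3 PBS arrays, with levels of 4.56, 4.26 and 4.75 with HDL NPs, 4.34, 4.46 and 4.27 with human HDL, and 4.32, 4.31 and 4.63 with PBS. The groups overlapped. In human HDL SEL1L was not above background, and no fold against that group is given for it. The difference of HDL NP from PBS was 0.11 (SE 0.15, adjusted p = 0.745 in limma).

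**Figure D2:**
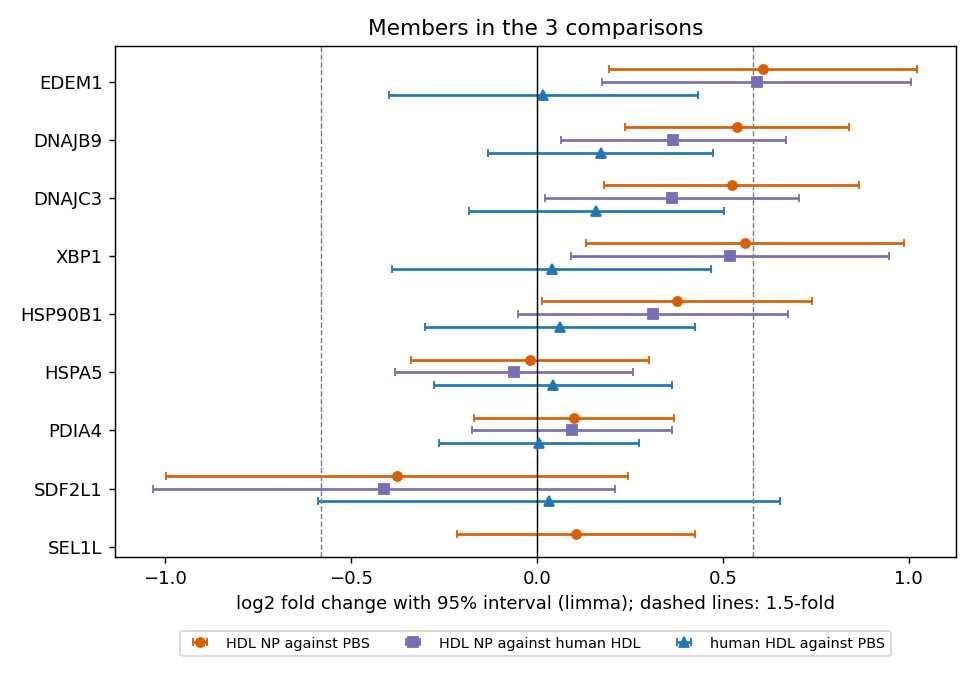
Log2 fold change (horizontal axis) of the 9 measured members with its 95% interval from limma, for HDL NP against PBS, HDL NP against human HDL and human HDL against PBS, 3 arrays per group. Dashed lines mark a 1.5-fold change. The intervals of EDEM1, DNAJB9, DNAJC3 and XBP1 lie above 0 in both HDL NP comparisons, every interval of human HDL against PBS includes 0, and SEL1L, not above background in human HDL, is drawn for HDL NP against PBS only.

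The second comparison asks whether the particle and the natural lipoprotein at the same molar dose differ. It shares the HDL NP arrays with the first, so its values are given side by side and not as a second line of evidence. HDL NP exceeded human HDL by 0.59 for EDEM1 (SE 0.19, 1.51-fold), 0.52 for XBP1 (SE 0.20), 0.37 for DNAJB9 (SE 0.14), 0.36 for DNAJC3 (SE 0.16) and 0.31 for HSP90B1 (SE 0.17). The values of PDIA4, HSPA5 and SDF2L1 were 0.09, -0.06 and -0.41. Adjusted p-values from limma were 0.183 to 0.853 over the 9 members, with 0 called (all genes, 0.553% higher and 0.0388% lower). EDEM1, DNAJB9 and XBP1 were higher on every HDL NP array than on any human HDL array, 3 of 9 members against 12.5% of all genes, and 4 members had an unadjusted p under 0.05 on the higher side (all genes, 9.56%). EDEM1 again was the 1 member to meet the study's rule (all genes, 1.63%). On the lower side 0 members lay below every human HDL array (all genes, 10.1%), 0 had an unadjusted p under 0.05 (all genes, 6.81%) and 0 met the rule (all genes, 1.35%). Without HDL NP replicate 1 the difference was 0.33 for EDEM1, 0.23 for XBP1, 0.28 for DNAJB9, 0.30 for DNAJC3 and 0.093 for HSP90B1, PDIA4 was 0.0030, HSPA5 -0.22 and SDF2L1 0.043. The members with an unadjusted p under 0.05 were EDEM1 and XBP1 (2 of 9, all genes 7.55%), EDEM1, DNAJB9 and XBP1 remained above every human HDL array (all genes, 15.4%), and the study's rule was met by 0 members (all genes, 0.990%). The rule was also not met without human HDL replicate 3 (difference 0.58, just under the limit).

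Human HDL against PBS asks whether the natural particle itself moved these genes. Differences over the 8 members other than SEL1L ran from 0.0048 for PDIA4 to 0.17 for DNAJB9, with adjusted p-values near 1 in limma, 0 members called (all genes, 0%) and 0 at an unadjusted p under 0.05 (all genes, 1.14% higher and 1.16% lower). In 0 members did the human HDL arrays all lie above the PBS arrays (all genes, 4.92%). The 95% interval for EDEM1 ran from -0.40 to 0.43 and that for XBP1 from -0.39 to 0.47, both inside a 1.5-fold change either way. The fit estimates 1 spread per gene from all 3 groups, so these intervals include the spread of the HDL NP arrays. For XBP1 the SD was 0.047 in PBS, 0.018 in human HDL and 0.51 in HDL NP. For EDEM1 it was 0.17, 0.011 and 0.45. The SE of a gene was therefore the same in all 3 comparisons.

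Set side by side, the XBP1 targets were higher on the HDL NP arrays than the ATF6 targets were. The median difference of HDL NP from PBS was 0.54 over the 3 XBP1 targets, 0.10 over the 6 measured ATF6 targets and 0.38 over the 9 members, beside 0.03 over all 10307 genes. Against human HDL these medians were 0.37, 0.13 and 0.31, and for human HDL against PBS 0.16, 0.04 and 0.04. On single arrays, the mean level of the XBP1 targets relative to the PBS mean was 0.83, 0.33 and 0.51 on the HDL NP arrays, and that of the ATF6 targets 0.23, 0.02 and 0.12. The gap between the classes was thus 0.60, 0.31 and 0.39 with HDL NPs, against 0.06 to 0.15 with human HDL and -0.16 to 0.10 with PBS. The gap of 0.60, on HDL NP replicate 1, depends in part on SDF2L1. That gene read -1.28 there, while the other measured ATF6 targets read 0.14 (SEL1L) to 1.14 (XBP1). The gap without SDF2L1 was not computed. The classes were drawn up with results of these arrays known, and no test was made between them. The ATF6 class is not uniform. Against PBS, XBP1 (0.56) was within the range of the XBP1 targets (0.52 to 0.61), and HSP90B1 (0.38) was below it. HSPA5 and PDIA4 were near 0, and SDF2L1 was below 0 (-0.38). Without HDL NP replicate 1, XBP1 (0.27) and HSP90B1 (0.16) were both below the XBP1 targets (0.35 to 0.46), and SDF2L1 was 0.08. Without HDL NP replicate 1 the medians against PBS were 0.45 for the XBP1 targets, 0.08 for the ATF6 targets, 0.16 for the 9 members and -0.0036 for all genes. Against human HDL they were then 0.30, 0.068 and 0.15, with -0.0079 over all genes. The medians include SEL1L at its measured level near background.

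**Figure D3:**
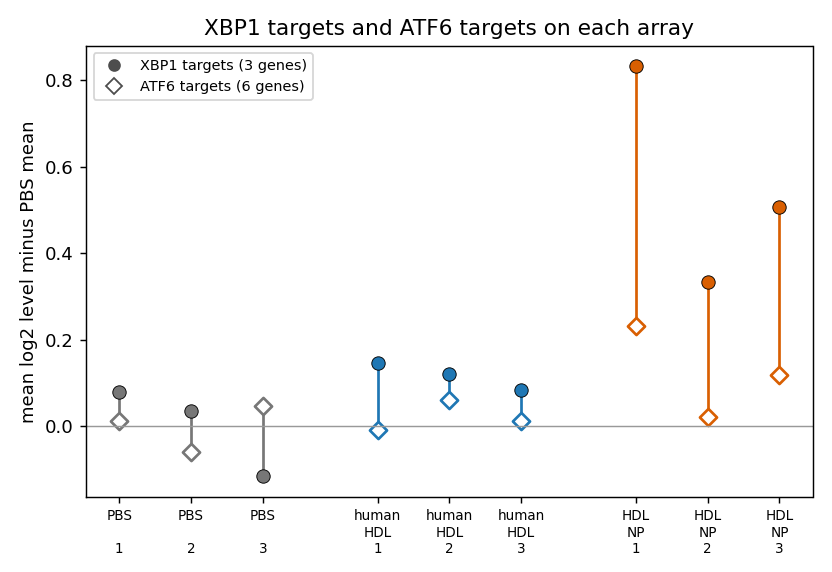
Mean log2 level relative to the PBS mean (vertical axis) of the 3 XBP1 targets (filled circles) and the 6 measured ATF6 targets (open diamonds) on each of the 9 arrays, where a line joins the 2 means of an array. The circles lie above the diamonds by 0.31 to 0.60 on the HDL NP arrays and by 0.06 to 0.15 on the human HDL arrays. The gap of 0.60 is that of HDL NP replicate 1, where the ATF6 targets include SDF2L1 at -1.28. On the PBS arrays, on whose mean both classes are centred, the gap is -0.16 to 0.10.

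A weighted fit gave the members a different standing. HDL NP replicate 1 received an array weight of 0.143, against 0.577 to 3.87 for the other 8 arrays, with the highest weight on HDL NP replicate 3. Replicates 1, 2 and 3 of HDL NP weighed 0.143, 0.577 and 3.87, so the weighted HDL NP values rest mostly on replicate 3. The estimation of the weights stopped before it reached its convergence tolerance, so the weights and the calls made with them are approximate. With these weights limma called EDEM1 (0.43, adjusted p = 0.0308), DNAJB9 (0.45, adjusted p = 0.0244) and DNAJC3 (0.57, adjusted p = 0.0186) higher with HDL NPs than with PBS, which are the 3 XBP1 targets, and 0 of the 6 measured ATF6 targets, while 5.17% of all genes were called higher and 3.20% lower. XBP1, placed among the ATF6 targets, was just over the limit in that fit (0.31, adjusted p = 0.0795 in limma). Against human HDL the weighted fit called EDEM1 (0.42, adjusted p = 0.0252) and DNAJC3 (0.43, adjusted p = 0.0421), with 6.60% of all genes called higher and 4.35% lower. The ranges that follow cover 10 alternatives, without the methods' t-test and without leaving out an array. The adjusted p against PBS in limma ranged from 0.0308 to 0.746 for EDEM1. It ranged from 0.0244 to 0.786 for DNAJB9 and from 0.0186 to 0.795 for DNAJC3. Against human HDL it ranged from 0.0252 to 0.847 for EDEM1 and from 0.0421 to 0.907 for DNAJC3. Each upper end came from a second table of the authors, whose unit is not stated. Without that table the upper ends against PBS were 0.545 for EDEM1, 0.529 for DNAJB9 and 0.511 for DNAJC3. Against human HDL they were then 0.418 for EDEM1 and 0.459 for DNAJC3. The weighted fit was the single alternative of these 10 under which any member was called.

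Neither the sensors nor the proteases that cut ATF6 were called. Of 6 such genes, ERN1 was above background on 0 of the 9 arrays and 5 were tested. Their median difference between HDL NP and PBS was 0.14, and 0 were called (all genes, 0.369% higher and 0.0388% lower). EIF2AK3 differed by 0.14 (SE 0.18), ATF6 by 0.09 (SE 0.15), its relative ATF6B by 0.09 (SE 0.16), and the proteases MBTPS1 by 0.16 (SE 0.11) and MBTPS2 by 0.30 (SE 0.16). The smallest adjusted p in limma was 0.394, for MBTPS2. When HDL NP replicate 1 was left out, the median was 0.13, MBTPS2 was 0.13 and ATF6 turned to -0.065. EIF2AK3 varied within the group, at 0.44, -0.34 and 0.33 from the PBS mean on the 3 HDL NP arrays.

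The PERK branch was represented by ATF4, DDIT3 (CHOP), PPP1R15A (GADD34) and TRIB3, and 4 of 4 were tested. Against PBS their median was 0.26, and 0 were called (all genes, 0.369% higher and 0.0388% lower). TRIB3, a pseudokinase raised by ATF4 and CHOP, was highest at 0.49 (SE 0.12, adjusted p = 0.0928 in limma) and was above PBS on every HDL NP array (0.65, 0.43 and 0.40 from the PBS mean). DDIT3, the death-associated factor of this branch, was lowest at 0.13 (SE 0.14), with -0.17, 0.27 and 0.28 on the 3 arrays. ATF4 itself differed by 0.35 (SE 0.18), of which HDL NP replicate 1 gave 0.83 and replicates 2 and 3 gave 0.06 and 0.17. The fit without HDL NP replicate 1 gave a median of 0.25, with TRIB3 at 0.41, DDIT3 at 0.28 and ATF4 at 0.11.

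Of the genes of ER folding and of ER-associated degradation 0 were called against PBS (all genes, 0.369% higher and 0.0388% lower). For folding, 15 of 16 genes were tested and the median was 0.17. An unadjusted limma p under 0.05 on the higher side was found for 2 (all genes, 9.07%), and 0 were called. The list ran from MANF, a secreted ER stress protein, at -0.23 (SE 0.17), to P4HB, a protein disulfide isomerase, at 0.51 (SE 0.12, adjusted p = 0.0879 in limma), and P4HB was 0.42 without HDL NP replicate 1. MANF was low on that array alone (-0.71, 0.02 and 0.0088 from the PBS mean on the 3 HDL NP arrays) and was 0.017 without it, when the median of the list was 0.069, below the 0.08 of the ATF6 targets. For ER-associated degradation 16 of 17 genes were tested, with a median of 0.18. Of these, 3 had an unadjusted limma p under 0.05 on the higher side (all genes, 9.07%), and 0 were called. This list ran from HERPUD2 at -0.16 (SE 0.20) to SYVN1, the ubiquitin ligase HRD1, at 0.64 (SE 0.20, adjusted p = 0.186 in limma). SYVN1 was the 1 gene of this list to meet the study's rule (all genes, 1.43% higher). Without HDL NP replicate 1 SYVN1 was 0.36 and the rule was no longer met, HERPUD2 was -0.24 and the median of the list was 0.19.

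Genes that bring proteins into the ER and send them onward went both ways. Of 21 genes 17 were tested, the median was 0.03, as over all genes, and 0 were called (all genes, 0.369% higher and 0.0388% lower). An unadjusted limma p under 0.05 was found for 4 on the higher side (all genes, 9.07%) and 1 on the lower side (all genes, 6.35%). SEC61A1, the channel subunit of the translocon, was highest at 0.73 (SE 0.20, adjusted p = 0.128 in limma). SEC61A1 was the 1 gene of this list to meet the study's rule (all genes, 1.43% higher). It read 1.18, 0.62 and 0.39 above the PBS mean on the 3 HDL NP arrays. Its difference was 0.50 without HDL NP replicate 1, under the 1.5-fold limit of the rule, and the median of the list was then 0.080. SSR4, a subunit of the translocon-associated complex, was lowest at -0.40 (SE 0.26), and like SDF2L1 it was low on HDL NP replicate 1 (-1.23) and near PBS on replicates 2 and 3 (0.12 and -0.08). Every HDL NP array was above every PBS array for 1 of 5 genes of the sensors and proteases, 1 of 4 of the PERK branch, 4 of 15 of folding, 4 of 16 of degradation and 4 of 17 of translocation and export, beside 11.7% of all genes. Every HDL NP array was below every PBS array for 2 of the 17 genes of translocation and export and 0 of the other 4 lists, beside 8.50% of all genes.

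**Figure D4:**
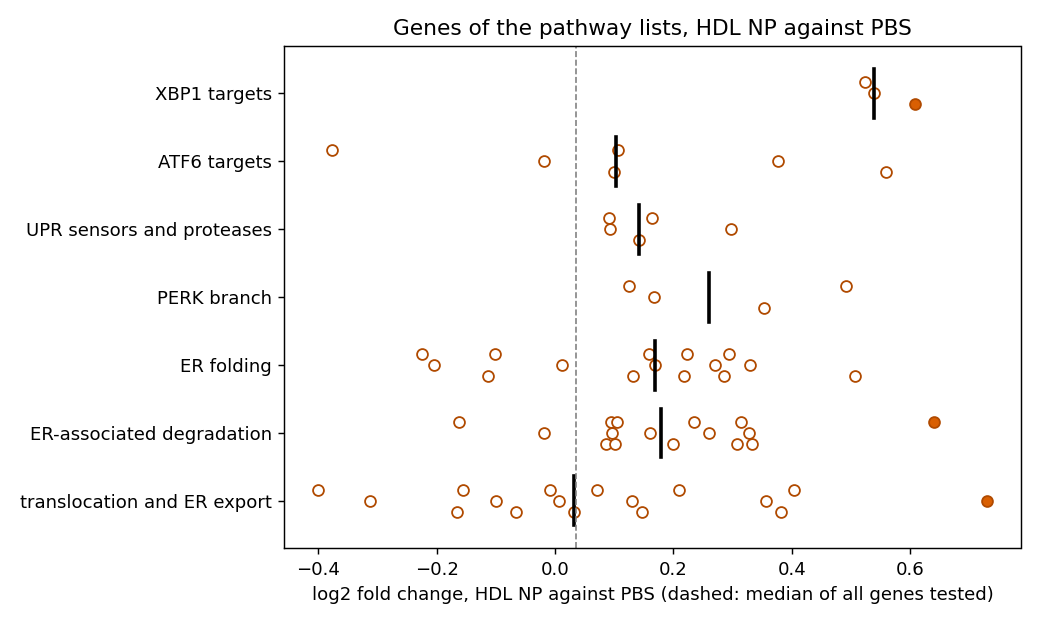
Log2 fold change of HDL NP against PBS (horizontal axis) for each tested gene of the XBP1 and ATF6 targets and of the 5 further ER lists (vertical axis, with points spread within a list for legibility). Black bars mark list medians, the dashed line the median of all genes tested (0.03) and filled points EDEM1, SYVN1 and SEC61A1, which met the study's rule. The medians run from 0.03 for translocation and ER export to 0.54 for the XBP1 targets.

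Over the 9 arrays, the genes outside the 10 members whose centred profile was closest to the mean profile of the measured members were LIN28B, an RNA-binding protein, at a Euclidean distance of 0.104, CLUAP1, a ciliary transport protein, at 0.124, and DNAJB11, the ER cochaperone ERdj3, at 0.136. The median distance over all genes was 0.604. The mean member profile read 0.33, 0.02 and 0.14 on HDL NP arrays 1 to 3 relative to each gene's own mean, and -0.03 to -0.13 on the other 6 arrays. It averages members that went different ways on HDL NP replicate 1, at 1.14 for XBP1, 1.12 for EDEM1 and -1.28 for SDF2L1 from the PBS mean. The distance of each member from the mean profile was not computed, so a gene near that profile need not be near any single member. LIN28B differed from PBS by 0.24 (SE 0.11), CLUAP1 by 0.32 (SE 0.11) and DNAJB11 by 0.33 (SE 0.12), with adjusted p-values of 0.230 to 0.329 in limma.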

How the data were processed

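Total RNA of Ramos cells (PBS, human HDL or HDL NP, 48 h) was run on Illumina HT-12 arrays by a genomics core, with 3 biological replicates per condition per the study's methods. The scanner software is not given in the sources used here. The authors deposited the mean bead intensity of 47323 probes on 9 arrays, not background subtracted and not normalized, with a detection p-value for each, which moves in steps of 1 over 770. A second table that the authors deposited holds a value of unstated unit, with column medians of 2.97 to 3.44. Its scale and centring are unknown and its direction was not tested, so it served only as an alternative. No depth applies to arrays, and their number limits the precision. The sample columns of both tables were all matched to labels.

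The background was corrected by normexp (offset 16), with the negative controls estimated from detection p-values, followed by quantile normalization and log2, as in the neqc function of limma 3.58.1 (R 4.3.3). A detection p under 0.05 on at least 3 of 9 arrays was required (18185 probes), and the brightest such probe stood for its gene (10307 genes). Of all probes, 30113 had 1 symbol, 8 several and 17202 none in the platform annotation, and 30074 matched the RefSeq gene table of GRCh38.p14 by gene ID, with 0 symbols changed. A single lmFit and eBayes fit of the 9 arrays had condition as its term (12.3 degrees of freedom), with Benjamini-Hochberg adjustment over all genes. The p-values measure the spread between these 9 samples. For each member an exact two-sided permutation test was run as well. The scripts were tested on simulated data. Promoters were searched as text in the RefSeq promoter table.

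The members and lists were chosen with earlier results of these data known. The lists, beside the members, are UPR sensors and proteases, PERK branch, ER folding, ER-associated degradation, translocation and ER export, and markers of B cells, germinal centre, plasma cells, T cells and myeloid cells. Named genes are all members, every sensor, up to 4 called genes of each list or, where 0 were called, its lowest and highest gene, and the 3 genes of nearest profile. The marker genes, ATF4 and PPP1R15A were named outside this rule. The alternatives were other background corrections and scalings, the second table, other filters, the mean of probes, the replicate number as a block, array weights, only the groups compared, the methods' t-test and leaving out each array. Values of the lists without HDL NP replicate 1 were added after seeing the data.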

Additional observations from a re-analysis of the deposited data

How the results depend on the processing

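Against PBS, 0 members were called under 10 alternatives and with each array left out (0 to 0), and 3 with array weights (EDEM1, DNAJB9 and DNAJC3). Against human HDL 2 were called with array weights (EDEM1 and DNAJC3), 0 under the other alternatives and 0 to 0 with an array left out. Human HDL against PBS gave 0 throughout. The count past the study's rule was 1 in each HDL NP comparison and fell to 0 without background correction, with an offset of 50, in the second table, with array weights and by the methods' t-test. It was 3 against PBS with median scaling (DNAJB9, DNAJC3 and EDEM1). With an array left out it was 0 to 4 against PBS and 0 to 3 against human HDL. Against PBS, leaving out PBS replicate 1 or 2 gave 2, and leaving out HDL NP replicates 1, 2 or 3 gave 0, 4 or 2. Against human HDL the last gave 0, 3 or 2, and leaving out human HDL replicate 3 gave 0.

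Median scaling shifted the median of all genes from 0.03 to 0.15 in HDL NP against human HDL, from 0.03 to 0.09 against PBS and from 0.0049 to -0.065 in human HDL against PBS. It turned HSPA5 to 0.099 against PBS, to 0.14 against human HDL and to -0.044 in human HDL against PBS, where EDEM1 was -0.067, HSP90B1 -0.015, PDIA4 -0.086, SDF2L1 -0.050 and XBP1 -0.043. In the second table DNAJB9 was -0.10 and PDIA4 -0.15 against human HDL.

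With an array left out, the difference from PBS ranged from -0.17 to 0.10 for HSPA5, from -0.65 to 0.076 for SDF2L1 and from -0.0068 to 0.24 for SEL1L. Against human HDL it ranged from -0.22 to 0.059 for HSPA5 and from -0.68 to 0.043 for SDF2L1. In human HDL against PBS it ranged from -0.079 to 0.091 for EDEM1, from -0.024 to 0.12 for HSPA5, from -0.045 to 0.058 for PDIA4 and from -0.064 to 0.10 for SDF2L1.

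In human HDL against PBS the members' median was 0.032 without background correction, -0.044 with median scaling, 0.16 in the second table and 0.020 with array weights, and 0.023 to 0.058 with an array left out. The median of the ATF6 targets was -0.046 with median scaling, 0.14 in the second table, 0.020 with the mean of kept probes and 0.019 with array weights, and 0.011 to 0.048 with an array left out. The median of the XBP1 targets was 0.051 without background correction, 0.081 with an offset of 50 and 0.078 with median scaling, and 0.076 to 0.24 with an array left out. In HDL NP against PBS the median of the ATF6 targets was 0.26 in the second table, 0.050 without background correction, 0.063 with an offset of 50 and 0.17 with median scaling, and that of the members 0.19 without background correction and 0.16 to 0.50 with an array left out. In HDL NP against human HDL the median of the ATF6 targets was 0.018 in the second table, 0.058 without background correction, 0.073 with an offset of 50, 0.23 with median scaling and 0.074 with array weights, and that of the members 0.14 without background correction, 0.21 with an offset of 50, 0.19 in the second table and 0.15 to 0.41 with an array left out. In HDL NP against human HDL the XBP1 targets had a median of 0.55 with median scaling and 0.21 in the second table. The causes of these changes were not tested.

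Whether the replicate numbers pair the arrays of different groups is not settled. Same-numbered arrays of different groups had deviations correlated at -0.08 to 0.17, and differently numbered arrays at -0.14 to 0.09. With the replicate number as a block, 10 genes were called higher against PBS in place of 38, 44 against human HDL in place of 57, and 0 members in either. A slide block could not be fitted, because the headers used here name no slide. The fit of only the compared groups called 2 genes higher against PBS, and the methods' t-test 0. SEL1L lies near background and is given against PBS only, and DNAJC3 is dim.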
